A study of Homo sapiens with 42 samples.

Results

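Serine/arginine-rich (SR) splicing factors are RNA-binding proteins that choose splice sites. The data gave counts for 10 of their genes, SRSF1, SRSF2, SRSF3, SRSF4, SRSF5, SRSF6, SRSF7, SRSF9, SRSF10 and SRSF11, taken by symbol from the 58243 genes counted. Their levels were followed in K562, an established line from chronic myeloid leukaemia that carries the BCR-ABL1 kinase. Cells without treatment (CTRL) were compared with cells given 1 μM imatinib (IM), which inhibits BCR-ABL1, for 1, 6 or 18 h, with 5 μM JTE-607 (JTE), which targets the 3′-end nuclease CPSF73, for 1, 6 or 18 h, or with 110 mM KCl, an osmotic stress, for 1 or 3 h. Poly(A) mRNA of whole cells was sequenced for all 9 groups, and nuclear RNA depleted of ribosomal RNA for 5 of them (CTRL, IM 1h, IM 18h, JTE 1h and KCl 1h). Each group had 3 biological replicates, 42 libraries in all, and all came from this single cell line.

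An SR protein holds 1 or more RNA recognition motifs and a tail rich in arginine-serine dipeptides. It binds exonic splicing enhancers and recruits spliceosome components to the neighbouring splice sites, and several members also act in mRNA export, stability and translation. SR protein kinases of the cytoplasm (SRPK) and nucleus (CLK) phosphorylate the tail, which sets where the protein resides and what it binds. Many SR genes limit their own mRNA by including a poison exon that sends the transcript to nonsense-mediated decay.

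Total counts lay between 16175394 and 25103205 in the 42 libraries, except for mRNA KCl 1h replicates 2 and 3 with 62953314 and 42474454. A member had at least 1109 counts in every library, and all 10 members passed the filter on low counts in every fit. The K562 label was met by its markers, since the erythroid transcription factor gene GATA1 lay between 118 and 204 CPM (counts scaled to the library total) in mRNA. The B cell marker MS4A1 did not exceed 0.142 CPM and the T cell marker CD3E did not exceed 0.434 CPM in mRNA, while CD14 and CD3D reached at most 2.47 and 3.34 CPM. Within several mRNA groups most members were lowest in the same replicate. CTRL replicate 2 was the lowest of its group for 8 of 10 members, and IM 1h replicate 1 and IM 18h replicate 1 for 8 each. The total counts of the library titled CTRL replicate 2 (19031221) are those the paper lists for its untreated replicate 1. JTE 1h replicate 1 was the lowest for 9, and JTE 6h replicate 1 and KCl 1h replicate 1 for 7 each. Replicates 1, 2 and 3 were lowest for 5, 3 and 2 members at IM 6h, 6, 0 and 4 at KCl 3h and 4, 2 and 4 at JTE 18h. The same count over all genes was not made. In nuclear RNA, IM 1h replicate 2 was the lowest for all 10. What moved these libraries was not tested.

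The promoters are shown for 4 members. The mRNA of SRSF3 and SRSF6 was called lower at 18 h of imatinib, and that of SRSF4 and SRSF11 was not. The SRSF6 call is the weaker of its pair, since it was lost when some single libraries were left out. RefSeq windows of 250 bases before the transcription start (GRCh38.p14) were found for 9 of the 10 genes, as 11 windows, and only stretches outside annotated exons are printed, 5′ to 3′. Capitals mark matches, on either strand, to the TATA box (TATAAA), the CCAAT box (CCAAT), the E-box (CACGTG), an ETS motif (CCGGAAGT), the NRF1 core (GCATGCGC), the cyclic AMP response element (TGACGTCA) and its TGACGT stretch, which lies within the longer element.
SRSF3 promoter, chr6:36594112-36594352, plus strand: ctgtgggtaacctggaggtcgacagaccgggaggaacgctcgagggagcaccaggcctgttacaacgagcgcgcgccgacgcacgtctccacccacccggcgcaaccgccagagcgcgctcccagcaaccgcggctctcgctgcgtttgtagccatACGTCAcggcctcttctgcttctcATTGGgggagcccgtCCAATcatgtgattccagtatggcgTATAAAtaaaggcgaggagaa
SRSF6 promoter, chr20:43457646-43457892, plus strand: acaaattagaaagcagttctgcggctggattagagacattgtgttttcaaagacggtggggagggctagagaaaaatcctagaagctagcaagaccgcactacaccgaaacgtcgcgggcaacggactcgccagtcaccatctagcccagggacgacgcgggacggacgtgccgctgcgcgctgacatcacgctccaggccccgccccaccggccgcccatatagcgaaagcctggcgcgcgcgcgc
SRSF4 promoter, chr1:29181988-29182150, minus strand: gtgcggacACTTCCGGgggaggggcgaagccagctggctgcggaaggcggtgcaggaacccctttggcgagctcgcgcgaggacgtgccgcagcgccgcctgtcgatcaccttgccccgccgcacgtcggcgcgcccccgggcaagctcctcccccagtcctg
SRSF11 promoter, chr1:70221130-70221369, plus strand: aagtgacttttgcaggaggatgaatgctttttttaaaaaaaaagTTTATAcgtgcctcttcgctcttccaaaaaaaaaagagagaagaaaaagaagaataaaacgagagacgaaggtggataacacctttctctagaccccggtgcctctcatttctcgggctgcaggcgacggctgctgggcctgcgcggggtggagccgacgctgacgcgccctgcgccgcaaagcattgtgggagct
The SRSF3 window held a TATA box 30 bases before the start, CCAAT boxes 70 and 55 bases before it and a TGACGT match 94 bases before it. SRSF7, whose window lies mostly in annotated exons (211 of 250 bases) and is not printed, held a TATA box and an NRF1 core. These lay 27 and 54 bases before the start, both in the exonic part. The windows of SRSF10, SRSF5 and SRSF1 lie wholly in annotated exons and are not printed either. SRSF10 held an NRF1 core 148 bases before the start. SRSF5 held an ETS motif 57 bases and a TGACGT match 50 bases before it, and SRSF1 a TGACGT match 150 bases before it. The SRSF6 stretch held none of these letters. The SRSF4 match is an ETS motif 242 bases before the start, and that of SRSF11 is a TATAAA 206 bases before 1 of its starts. Of the 11 windows of the family, TATAAA was present in 3, beside 10.7% of all 35116 windows of this length, CCAAT in 1 (32.0% of all), CCGGAAGT in 2 (3.42%), GCATGCGC in 2 (2.63%) and TGACGT in 3 (7.1%). TGACGTCA (1.65%) and CACGTG (6.34%) were in no window of the family. A match is a description of these letters and does not show a bound factor.

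Levels were first ordered in untreated cells, as RPKM, the count scaled to both the TMM-scaled library size and the exon length. Genes of different length can then be set side by side. SRSF1, the founding member of the family and a proto-oncogene, was highest in CTRL mRNA, at 139 ± 17.2 RPKM (SD, n = 3). SRSF2, a factor recurrently mutated in myeloid neoplasms, followed at 109 ± 33.2 RPKM. SRSF3, the smallest SR protein and an mRNA export adaptor, stood at 91.3 ± 21.8 RPKM. The libraries of each of these genes overlapped those of the next, and so did SRSF3 with SRSF7 (70.3 ± 15.9 RPKM) and SRSF7 with SRSF6 (62.1 ± 20.6 RPKM). Below this set, and without overlap, came SRSF5 at 39.4 ± 4.21 RPKM. SRSF11 (29.4 ± 2.53 RPKM) and SRSF10 (28.6 ± 4.07 RPKM) overlapped each other and lay above SRSF4 (21.2 ± 3.34 RPKM) and SRSF9 (20.9 ± 1.48 RPKM), which overlapped too. In nuclear CTRL RNA the first places were again SRSF1 (103 ± 5.20 RPKM), SRSF2 (67.3 ± 2.81 RPKM) and SRSF3 (57.8 ± 2.25 RPKM), here with no overlap between neighbours, and the lowest was SRSF10 (20.1 ± 0.936 RPKM). The RPKM of a member with shared exons is uncertain: 46.18% of the SRSF9 exon bases lie over GATC on the opposite strand, 36.66% of SRSF2 over MFSD11 on the opposite strand and the microRNA gene MIR636, and 23.08% of SRSF1 over 2 genes without a symbol. Read pairs assigned to both genes of such an overlap were not counted.

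Imatinib was followed over time in mRNA to ask when SR transcripts changed after BCR-ABL1 inhibition. At 1 h none of the 10 members was called against CTRL. At 6 h SRSF7 fell. At 18 h SRSF1, SRSF2, SRSF3, SRSF6 and SRSF7 were lower, to between 47.7% and 63.5% of CTRL, while SRSF4, SRSF5, SRSF10 and SRSF11 did not pass the test. The rule for a call was a log2 fold change larger than 0.6 in size together with a Benjamini-Hochberg adjusted p below 0.05 by edgeR's quasi-likelihood test. Where no member was called by edgeR, DESeq2 called none either. All treated groups of a fraction were compared with the same 3 CTRL libraries.

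**Figure D1:**
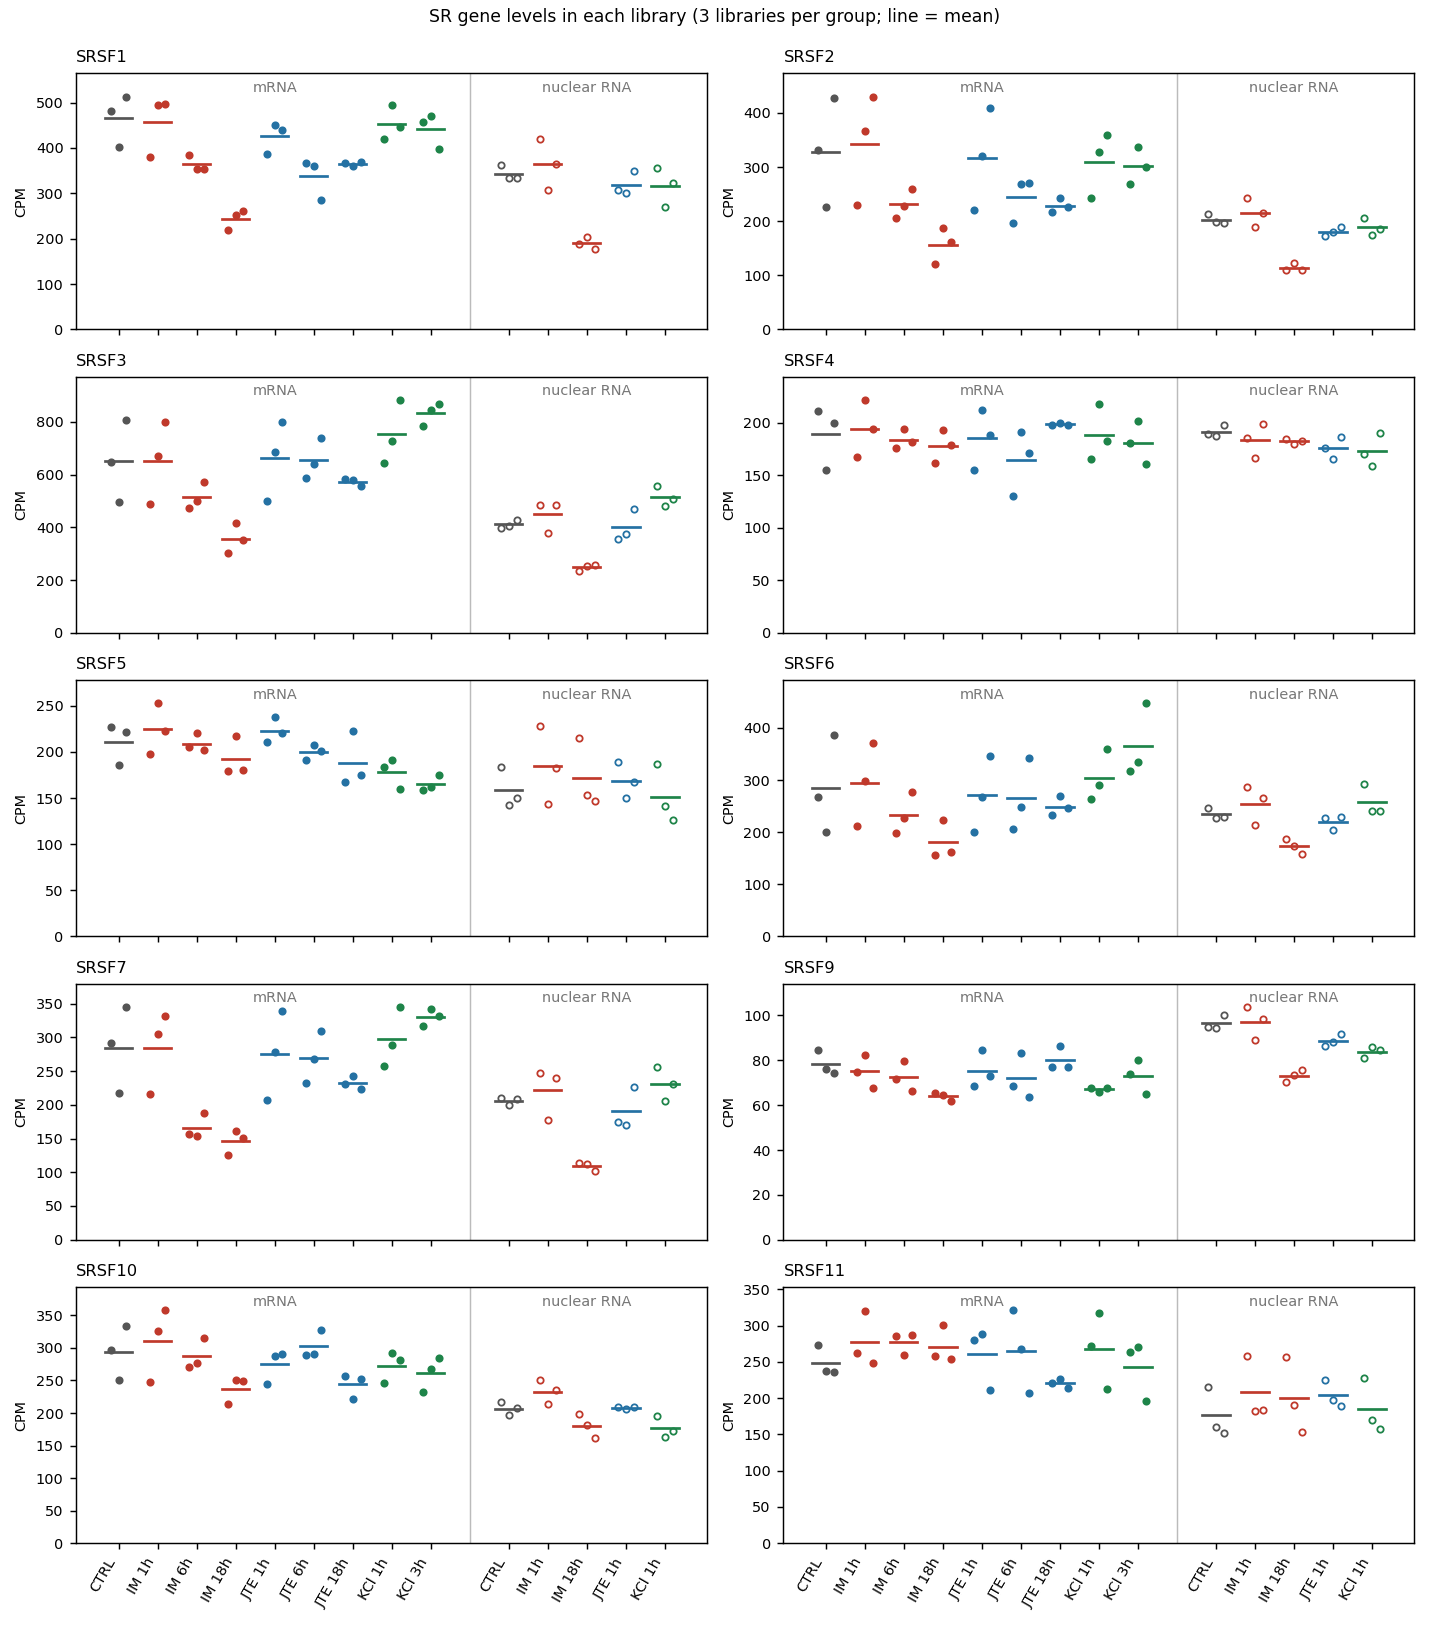
Level of each SR gene (CPM, y axis from 0, own scale per gene) in the 3 libraries of each of 14 groups, filled circles for mRNA and open circles for nuclear RNA, with a line at the group mean. Among the mRNA groups the mean of IM 18h is the lowest for 7 of the 10 genes, and among the nuclear groups for 6. The same count over all genes was not made.

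At 1 h of imatinib the members' log2 fold changes in mRNA ran from -0.06 to 0.15 with SEs of 0.11 to 0.24, and every edgeR adjusted p was 1. No member had an unadjusted p under 0.05, and over all 18095 genes tested 0.0166% were called.

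At 6 h, 1 of 10 members was called, SRSF7, against 9.94% of all genes (4.12% lower). SRSF7 (ENSG00000115875, chromosome 2, 38743599 to 38751494, minus strand), a zinc knuckle SR protein that also serves mRNA export, measured 291, 217 and 345 CPM in CTRL and 156, 154 and 188 CPM at 6 h. The groups did not overlap, and CTRL replicate 2 was nearest to the treated libraries (edgeR log2 fold change -0.78, SE 0.18, adjusted p 0.00379). SRSF1 measured 481, 402 and 513 CPM in CTRL and 384, 354 and 354 CPM at 6 h, a smaller difference without overlap (edgeR log2 fold change -0.35, SE 0.11, adjusted p 0.0367) that stayed under the fold threshold. SRSF2 gave -0.51 (SE 0.24, edgeR adjusted p 0.158), and without CTRL replicate 2, the library of low SR levels, -0.74 (edgeR adjusted p 0.0471), which meets the rule, while without CTRL replicate 3 it gave -0.31 (edgeR adjusted p 0.485). Counted by the adjusted p alone, 2 members passed, against 16% of all genes. The members' median log2 fold change was -0.20, beside 0.04 over all genes tested.

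At 18 h, 5 of 10 members were called in mRNA, all lower, against 30.5% of all genes (13.2% lower). By the adjusted p alone 6 passed, against 43.8% of all genes. The median log2 fold change of the members was -0.48, beside 0.04 over all genes. Together the 10 genes took 0.303 ± 0.0556% of the counts in CTRL and 0.208 ± 0.0258% at 18 h (SD, n = 3). In RNA of whole cultures, a fall in every cell and a loss of cells with high levels cannot be told apart. CPM gives levels relative to the other counted RNA and not amounts per cell.

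SRSF1 (ENSG00000136450, chromosome 17, 58003360 to 58007346, minus strand) went from 481, 402 and 513 CPM in CTRL to 218, 252 and 261 CPM at 18 h. All treated libraries lay far below all CTRL libraries (edgeR log2 fold change -0.93, SE 0.12, adjusted p 1.07e-06). SRSF2 (ENSG00000161547, chromosome 17, 76734115 to 76737374, minus strand) measured 331, 227 and 428 CPM in CTRL and 121, 188 and 161 CPM at 18 h. Its CTRL libraries spread widely, and the groups still did not overlap (edgeR log2 fold change -1.07, SE 0.24, adjusted p 0.00114).

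SRSF3 (ENSG00000112081, chromosome 6, 36594353 to 36605600, plus strand), the most abundant member by CPM, measured 648, 495 and 806 CPM in CTRL and 304, 415 and 351 CPM at 18 h. The ranges were apart, by less than for SRSF1 (edgeR log2 fold change -0.86, SE 0.18, adjusted p 0.000518). SRSF7 reached 126, 161 and 150 CPM at 18 h, below every CTRL library (edgeR log2 fold change -0.96, SE 0.18, adjusted p 0.00013).

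SRSF6 (ENSG00000124193, chromosome 20, 43457928 to 43464247, plus strand), whose known targets include an alternative exon of tau, measured 268, 200 and 387 CPM in CTRL and 157, 224 and 162 CPM at 18 h. The highest treated library lay above the lowest CTRL library, so the ranges overlapped. The SRSF6 call (edgeR log2 fold change -0.65, SE 0.25, adjusted p 0.0348) was lost without CTRL replicate 1 (-0.70, adjusted p 0.0531), CTRL replicate 3 (-0.41, adjusted p 0.204), IM 18h replicate 1 (-0.56, adjusted p 0.128) or IM 18h replicate 3 (-0.59, adjusted p 0.107). SRSF9 (ENSG00000111786, chromosome 12, 120461668 to 120469793, minus strand) measured 84.8, 76.0 and 74.5 CPM in CTRL and 65.3, 64.8 and 61.7 CPM at 18 h. Its libraries were tight and did not overlap, with a small difference (edgeR log2 fold change -0.29, SE 0.11, adjusted p 0.0322) under the fold threshold.

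The other 4 members did not pass the test at 18 h. SRSF10 (ENSG00000188529, chromosome 1, 23964804 to 23980927, minus strand), known as a splicing repressor when dephosphorylated in heat-shocked or mitotic cells, measured 297, 251 and 334 CPM in CTRL and 213, 251 and 249 CPM at 18 h (edgeR log2 fold change -0.31, SE 0.13, adjusted p 0.0503). SRSF4 (ENSG00000116350, chromosome 1, 29147743 to 29181987, minus strand), the SR protein with the longest arginine-serine tail, gave -0.09 (SE 0.14). Its CTRL libraries at 212, 155 and 200 CPM enclosed the treated ones at 161, 193 and 179 CPM.

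SRSF5 (ENSG00000100650, chromosome 14, 69726900 to 69772005, plus strand), first cloned as an insulin-induced gene of regenerating liver, gave a log2 fold change of -0.14 (SE 0.11). SRSF11 (ENSG00000116754, chromosome 1, 70205682 to 70253052, plus strand), an SR-related protein that binds the large U2AF subunit, gave 0.12 (SE 0.16). Both genes have gaps between exons (38922 and 15589 bases) above the longest intron allowed in the alignment, so pairs across those gaps were lost in all libraries.

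**Figure D2:**
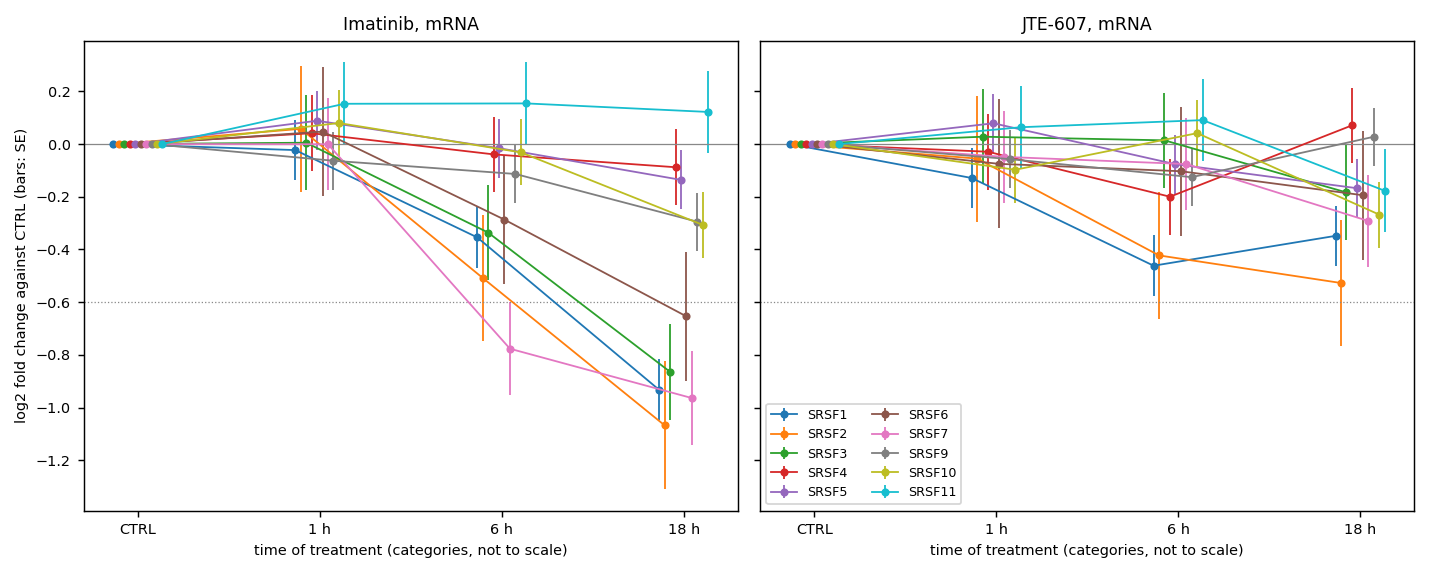
Log2 fold change against CTRL in mRNA (y axis; bars, SE) of the 10 SR genes after imatinib and JTE-607 at 1, 6 and 18 h, with CTRL set at 0 and a dotted line at -0.6. After imatinib SRSF1, SRSF2, SRSF3, SRSF6 and SRSF7 lie below the dotted line at 18 h, and after JTE-607 no gene does.

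From 6 to 18 h the 10 members all had log2 differences below 0, from -0.58 to -0.03, and none was called, against 4.41% of all genes. The members' median was -0.23, beside 0.00 over all genes tested. How many of all genes lay below 0 or had an unadjusted p under 0.05 was not counted. The unadjusted p was under 0.05 for 4 of them, and the adjusted p for 1, beside 8.34% of all genes. SRSF1 differed most (-0.58, SE 0.12, edgeR adjusted p 0.00354), just short of the fold threshold, with no overlap between the time points. It crossed that threshold without IM 6h replicate 3 (-0.60) and, at 18 h, without replicate 2 (-0.60) or 3 (-0.63). SRSF7 differed by -0.19 (SE 0.18, edgeR adjusted p 0.556), and it had stood at -0.78 against CTRL at 6 h and at -0.96 at 18 h.

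Nuclear RNA was compared in the same way to ask whether the nuclear transcripts moved too. At 18 h of imatinib SRSF1, SRSF2, SRSF3 and SRSF7 were called lower, 4 of 10 members against 32.6% of all 21929 genes (15.4% lower), and these 4 were called in mRNA as well. SRSF6 and SRSF9 passed the adjusted p and not the fold threshold, which made 6 members by the adjusted p alone, against 45.6% of all genes. The members took 0.222 ± 0.00982% of the nuclear counts in CTRL and 0.172 ± 0.0110% at IM 18h. Their median log2 fold change was -0.42, beside 0 over all genes.

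SRSF1 measured 363, 333 and 333 CPM in nuclear CTRL and 188, 205 and 177 CPM at 18 h. The replicates were close within each group and far apart between them (edgeR log2 fold change -0.86, SE 0.12, adjusted p 5.49e-06). SRSF2 measured 213, 199 and 197 CPM in CTRL and 110, 123 and 109 CPM at 18 h, again with a wide gap (edgeR log2 fold change -0.83, SE 0.10, adjusted p 1.22e-06).

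SRSF3 went from 398, 406 and 429 CPM to 235, 252 and 257 CPM, without overlap (edgeR log2 fold change -0.73, SE 0.11, adjusted p 2.06e-05). SRSF7 went from 210, 199 and 209 CPM to 114, 112 and 101 CPM, the largest nuclear estimate of the 10 (edgeR log2 fold change -0.92, SE 0.13, adjusted p 7.99e-06). For each of these 4 genes all treated libraries lay below all CTRL libraries.

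SRSF6 measured 246, 227 and 229 CPM in nuclear CTRL and 187, 174 and 158 CPM at 18 h (edgeR log2 fold change -0.44, SE 0.11, adjusted p 0.00284). In contrast to mRNA, its nuclear groups did not overlap. SRSF9 gave -0.40 (SE 0.09, edgeR adjusted p 0.000845), also without overlap. SRSF4, SRSF5, SRSF10 and SRSF11 gave -0.07, 0.12, -0.20 and 0.19 and did not pass. In the fit with the replicate block, since numbers pair the nuclear libraries, SRSF10 (-0.20, edgeR adjusted p 0.0170) and SRSF11 (0.18, edgeR adjusted p 0.0462) passed the adjusted p too, neither of them the fold threshold.

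Whether the nuclear response to imatinib at 18 h differed from that of mRNA was tested as an interaction over 12 libraries. The differences ran from -0.05 (SRSF9) to 0.31 (SRSF5) on the log2 scale with SEs of 0.13 to 0.27. None was called, every edgeR adjusted p rounded to 1.00, and no member had an unadjusted p under 0.05; among all genes 0.0901% were called. Differences of the size of these SEs could not be resolved with 3 libraries per group.

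**Figure D3:**
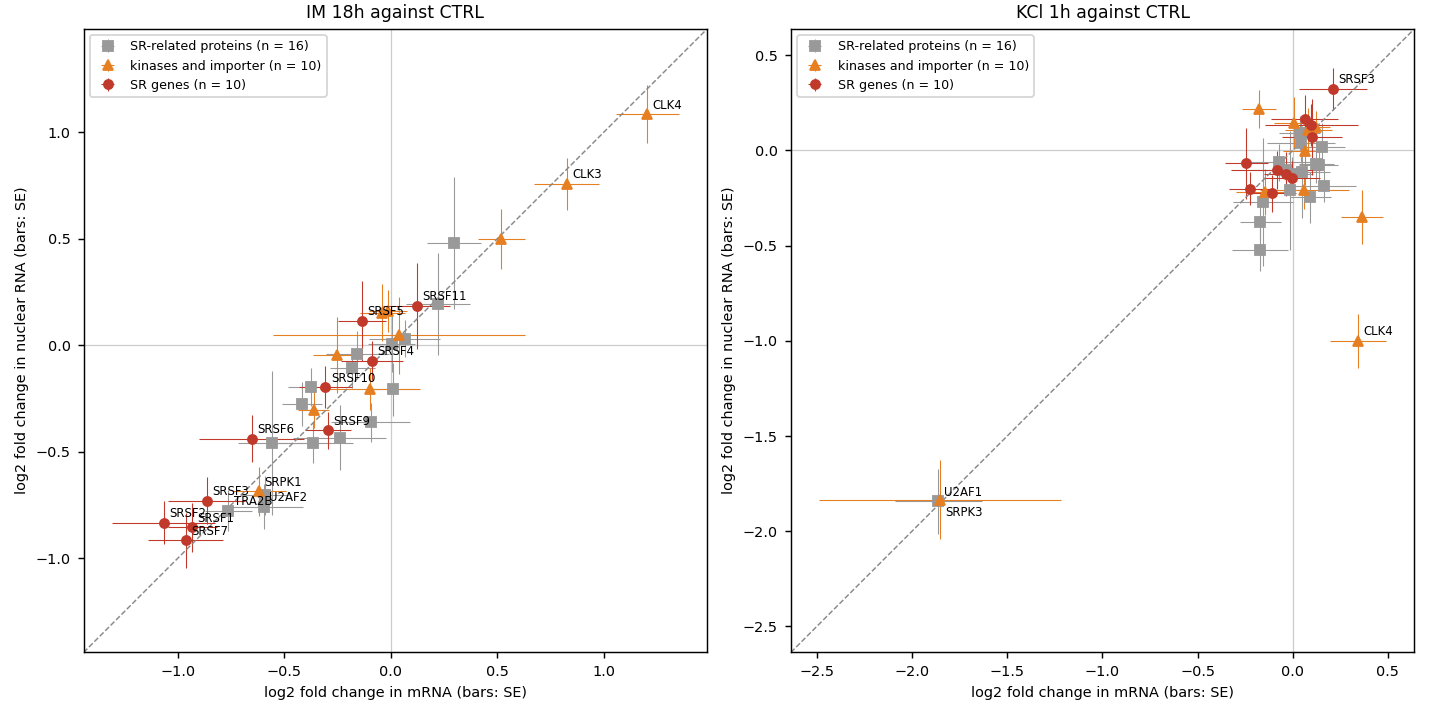
Log2 fold change against CTRL in nuclear RNA (y axis) and in mRNA (x axis) for IM 18h (left) and KCl 1h (right), with bars for SE and a dashed line of equality, for the 10 SR genes, 16 SR-related genes and 10 kinase or importer genes tested in both. At IM 18h SRSF1, SRSF2, SRSF3 and SRSF7 sit at the lower left in both fractions and CLK3 and CLK4 at the upper right, while at KCl 1h the SR genes gather near 0 and CLK4 is low in nuclear RNA alone (-1.0 against 0.34 in mRNA).

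At 1 h of imatinib no member was called in nuclear RNA, against 0.0456% of all genes. Log2 fold changes ran from -0.06 to 0.24, with edgeR adjusted p of 0.879 or more and no unadjusted p under 0.05. With the replicate block no member passed the adjusted p either. SRSF11 came closest there (0.24, SE 0.075, edgeR adjusted p 0.0820). Replicate 2 was the lowest library for all 10 genes, as for SRSF1 at 419, 308 and 365 CPM.

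JTE-607 was used in mRNA at the same 3 times. None of the 10 members was called at 1, 6 or 18 h, against 0.851%, 13.2% and 5.39% of all genes. The unadjusted p was under 0.05 for 0, 1 and 3 members, and the members' medians were -0.05, -0.09 and -0.19 on the log2 scale. SRSF1 was the single member to pass the adjusted p, at 6 h, as did 18.1% of all genes. It measured 367, 361 and 286 CPM at 6 h, all below CTRL (edgeR log2 fold change -0.46, SE 0.11, adjusted p 0.0054). At 18 h SRSF1 stood at 368, 360 and 369 CPM, also below every CTRL library, and did not pass (-0.35, SE 0.11, edgeR adjusted p 0.0573). SRSF2 measured 216, 242 and 226 CPM at 18 h, so that 1 of the 3 libraries lay inside the CTRL range of 227 to 428 CPM (edgeR log2 fold change -0.53, SE 0.24, adjusted p 0.189). Between 6 and 18 h of JTE-607 no member was called (13.4% of all genes were), and 1 had an unadjusted p under 0.05. SRSF10 was at 289, 290 and 328 CPM at 6 h and at 257, 222 and 253 CPM at 18 h. Its difference of -0.31 (SE 0.13, edgeR adjusted p 0.0793) passed the adjusted p with the replicate block, whose numbers pair these groups (-0.30, edgeR adjusted p 0.0173).

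In nuclear RNA, JTE 1h called none of the members, against 8.52% of all genes, and none had an unadjusted p under 0.05. Log2 fold changes ran from -0.17 (SRSF2) to 0.21 (SRSF11). SRSF11 measured 225, 197 and 189 CPM, beside 216, 161 and 152 CPM in CTRL, so that within each replicate number the treated library was the higher. It passed the adjusted p in the fit with the replicate block (0.23, edgeR adjusted p 0.0272) and not without it (0.21, SE 0.20, edgeR adjusted p 0.591).

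Imatinib and JTE-607 were set against each other at 18 h in mRNA, where SRSF3 and SRSF7 were called lower in imatinib, 2 of 10 members against 30.3% of all genes (13.6% lower). SRSF3 measured 304, 415 and 351 CPM in imatinib and 582, 578 and 556 CPM in JTE-607. The JTE-607 libraries were close together and all above the imatinib ones (log2 difference -0.68, SE 0.18, edgeR adjusted p 0.00401). SRSF7 measured 126, 161 and 150 CPM against 230, 243 and 223 CPM, with the same separation (-0.67, SE 0.18, edgeR adjusted p 0.00361). Without IM 18h replicate 1 both differences fell to -0.58 and lost the call (adjusted p 0.0300 and 0.0273). SRSF1 (-0.58, SE 0.12, edgeR adjusted p 0.000264) and SRSF9 (-0.32, SE 0.11, edgeR adjusted p 0.0200) passed the adjusted p alone, which made 4 members, against 44.2% of all genes. Without IM 18h replicate 2, SRSF1 (-0.63) and SRSF2 (-0.71) were called as well. SRSF1 was also called without IM 18h replicate 3 (-0.64), without any 1 of the JTE 18h libraries (-0.61 to -0.60) and by DESeq2 (-0.61).

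KCl was used as an osmotic stress, and none of the 10 members was called at 1 h or 3 h in mRNA, against 5.45% and 11.9% of all genes. At each time 1 member had an unadjusted p under 0.05. SRSF5 was the single member to pass the adjusted p, at 3 h, as did 15.8% of all genes. It measured 227, 185 and 221 CPM in CTRL, 184, 191 and 160 CPM at 1 h and 159, 162 and 175 CPM at 3 h, where all libraries were below CTRL (edgeR log2 fold change -0.35, SE 0.11, adjusted p 0.0305). The highest mRNA means of SRSF3, SRSF6 and SRSF7 were those of KCl 3h. SRSF3 was at 782, 847 and 868 CPM there, overlapping the highest CTRL library (edgeR log2 fold change 0.36, SE 0.18, adjusted p 0.211). SRSF6 gave 0.36 (SE 0.24, edgeR adjusted p 0.377) and SRSF7 0.21 (SE 0.17, edgeR adjusted p 0.487). From 1 to 3 h no member was called, against 3.29% of all genes, and none had an unadjusted p under 0.05.

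In nuclear RNA KCl for 1 h called none of the members, against 23.8% of all genes. SRSF3 measured 555, 482 and 508 CPM, above all CTRL libraries (398, 406 and 429 CPM; edgeR log2 fold change 0.33, SE 0.11, adjusted p 0.0323), and did not reach the fold threshold. It was the 1 member past the adjusted p, beside 27.2% of all genes, while 3 had an unadjusted p under 0.05. With the replicate block, SRSF9 (-0.20, edgeR adjusted p 0.0229) and SRSF10 (-0.23, edgeR adjusted p 0.00998) passed the adjusted p too. Set directly against nuclear JTE 1h, KCl 1h called no member (15.9% of all genes were called), and 3 had an unadjusted p under 0.05. SRSF3 was higher in KCl than in JTE-607, where it measured 357, 375 and 470 CPM (log2 difference 0.36, SE 0.11, edgeR adjusted p 0.0251), and was the 1 member past the adjusted p, beside 17.7% of all genes. With the block SRSF6 (0.22), SRSF7 (0.28) and SRSF10 (-0.24) passed as well, at edgeR adjusted p of 0.0258, 0.0370 and 0.00984. The responses to IM 1h, JTE 1h and KCl 1h did not differ between nuclear RNA and mRNA by the interaction test for any member (edgeR adjusted p of 0.779 or more, and no unadjusted p under 0.05), against 0%, 0.0605% and 0.668% of all genes called.

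**Figure D4:**
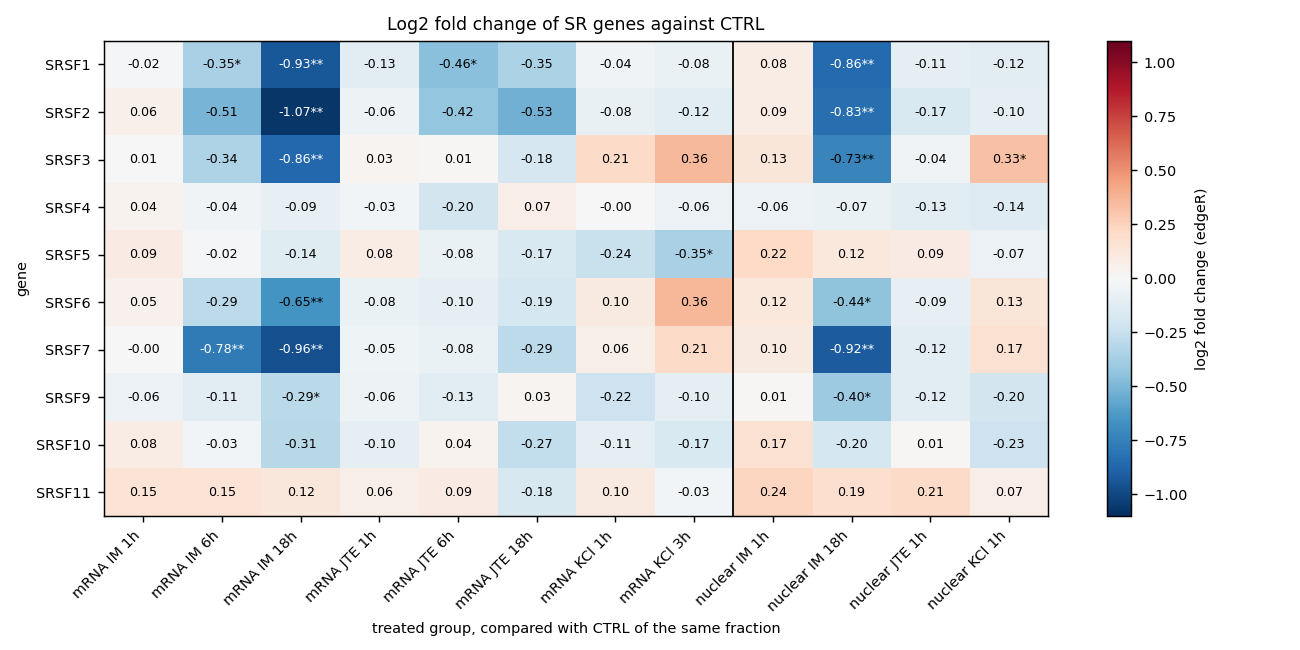
Log2 fold change against CTRL of the same fraction (colour and printed value) for the 10 SR genes in 12 treated groups; 1 asterisk marks an edgeR adjusted p under 0.05 and 2 asterisks a called gene. Called values stand at mRNA IM 6h (SRSF7), mRNA IM 18h (5 genes) and nuclear IM 18h (4 genes).

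Nuclear and mRNA libraries of CTRL cells were compared to see how SR transcripts were distributed between the preparations. SRSF1, SRSF2, SRSF3, SRSF5, SRSF6, SRSF7, SRSF10 and SRSF11 took a smaller share in nuclear RNA, 8 of 10 members against 44.9% of all 17905 genes called (21% lower), with a median of -0.84 over the members and 0.02 over all genes. SRSF2 had the largest difference (log2 -1.08, SE 0.18, edgeR adjusted p 0.000448), from 331, 227 and 428 CPM in mRNA to 213, 199 and 197 CPM in nuclear RNA, without overlap. SRSF3 followed (-1.04, SE 0.14, edgeR adjusted p 4.78e-05). SRSF4 (-0.37, SE 0.12, edgeR adjusted p 0.0199) passed the adjusted p alone, and SRSF9 (-0.09, SE 0.11, edgeR adjusted p 0.508) did not. By the adjusted p alone 9 members passed, against 58.5% of all genes. By mean CPM, with TMM run in each fraction apart, SRSF9 was the higher in nuclear RNA (96.5 ± 3.07 against 78.4 ± 5.53, SD, n = 3). SRSF4 was about level (192 ± 5.38 against 189 ± 29.7), so the direction of both depends on the scaling. The 8 called members were lower in nuclear RNA by mean CPM too, each by less than in the joint fit. SRSF1 stood at 343 ± 17.4 against 465 ± 57.4 CPM and SRSF6 at 234 ± 10.5 against 285 ± 94.5 CPM. The count of 8 and the median of -0.84 thus rest on the joint TMM scaling. SRSF6 (-0.66) lost its call without mRNA CTRL replicate 3 (-0.43) or any 1 of the nuclear CTRL libraries. The compartment and the library chemistry (poly(A) selection or ribosomal RNA depletion) cannot be told apart here.

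Across the 9 mRNA groups SRSF3, SRSF7, SRSF2, SRSF6 and SRSF1 varied most, with a highest group mean 2.33, 2.26, 2.18, 2.02 and 1.91 times the lowest. SRSF5, SRSF10, SRSF11, SRSF9 and SRSF4 varied by 1.36, 1.31, 1.26, 1.25 and 1.21 times. Replicate spread differed between the fractions too: the coefficient of variation of a member in CTRL ran from 7.05% to 33.1% in mRNA and from 2.81% to 19.7% in nuclear RNA.

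Beside the 10 genes, a list of 17 other SR-related splicing genes was followed (16 of them tested in nuclear RNA). At IM 18h, 1 of 17 was called in mRNA and 3 of 16 in nuclear RNA, all lower, beside 13.2% and 15.4% of all genes called lower. TRA2B, an SR-like partner of SR proteins at exonic enhancers, fell in both. It measured 369, 315 and 355 CPM in mRNA CTRL and 176, 224 and 213 CPM at 18 h, without overlap (edgeR log2 fold change -0.76, SE 0.11, adjusted p 6.24e-06), and in nuclear RNA it changed by -0.78 (SE 0.10, edgeR adjusted p 2.11e-06). U2AF2, the large subunit of the factor that binds the polypyrimidine tract, fell in nuclear RNA (-0.76, SE 0.10, edgeR adjusted p 7.07e-06). The list medians were -0.18 in mRNA and -0.24 in nuclear RNA. None of the list was called at IM 1h, IM 6h or any time of JTE-607. PNN, an SR-related protein of the exon junction complex, was lower in IM 18h than in JTE 18h (log2 difference -0.77, SE 0.16, edgeR adjusted p 0.00045), the 1 called gene of the list in that comparison. Between the CTRL preparations 3 of 16 were called, all lower in nuclear RNA (21% of all genes were), with PNN (-1.0) and LUC7L3 (-0.95), a U1-associated factor, at the front.

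After KCl, U2AF1, the small U2AF subunit that reads the AG of the 3′ splice site, was called lower in mRNA at 1 h (edgeR log2 fold change -1.86, SE 0.23, adjusted p 8.96e-06) and 3 h (-1.58, SE 0.23, edgeR adjusted p 3.02e-05) and in nuclear RNA at 1 h (-1.84, SE 0.17, edgeR adjusted p 6.79e-08). It measured only 5.84, 3.35 and 5.35 CPM in mRNA CTRL and 1.09, 1.52 and 1.30 CPM at 1 h. The assembly holds a near-identical copy of this gene and only uniquely aligned reads were counted, so its level is uncertain. SRSF12, an SR relative, was called higher in mRNA at 3 h of KCl, with 19, 13 and 11 counts against 0, 1 and 0 in CTRL (edgeR adjusted p 0.00216). In nuclear RNA, where it was not tested, it had 11, 12 and 8 counts after KCl for 1 h and 0 in all 3 CTRL libraries. The other 16 SR-related genes of the list were not called higher after KCl.

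A further list held 10 genes, SR protein kinases and the importer of SR proteins (TNPO3). At IM 18h 2 of them were called higher and 1 lower in mRNA, and the same numbers in nuclear RNA, a share near that of all genes called (30.5% and 32.6%). SRPK1, the main cytoplasmic SR protein kinase, fell from 448, 454 and 362 CPM to 274, 271 and 279 CPM in mRNA, without overlap (edgeR log2 fold change -0.62, SE 0.12, adjusted p 0.000334), and by -0.69 in nuclear RNA (SE 0.12, edgeR adjusted p 6e-05). The mRNA call stayed short of the fold threshold without CTRL replicate 1 (-0.58) or 2 (-0.59), and the nuclear one without nuclear CTRL replicate 1 (-0.57).

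CLK4, a nuclear kinase of SR proteins, rose from 13.2, 12.2 and 11.2 CPM in mRNA CTRL to 18.5, 17.8 and 22.3 CPM at 6 h and 29.4, 24.9 and 30.2 CPM at 18 h. No library overlapped between the 3 groups (edgeR log2 fold change 0.68, SE 0.15, adjusted p 0.00276 at 6 h and 1.20, SE 0.15, edgeR adjusted p 1.01e-06 at 18 h). The 6 h call was lost without CTRL replicate 3 (0.58) or IM 6h replicate 3 (0.55). CLK3, of the same kinase family, rose from 47.0, 38.8 and 40.2 CPM to 87.4, 67.9 and 68.2 CPM at 18 h (0.83, SE 0.15, edgeR adjusted p 0.000138). In nuclear RNA CLK4 changed by 1.09 (SE 0.14, edgeR adjusted p 2.09e-06) and CLK3 by 0.76 (SE 0.12, edgeR adjusted p 3.8e-05) at IM 18h. Both were higher in IM 18h than in JTE 18h, by 1.18 and 0.88 (edgeR adjusted p 1.29e-06 and 7.34e-05). From 6 to 18 h CLK3 was called (0.63, SE 0.15, edgeR adjusted p 0.0139), a call lost without IM 6h replicate 1 or 2 (0.55 and 0.59) or IM 18h replicate 1 (0.49), and with no filter on low counts (0.58).

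No kinase gene of the list was called after JTE-607 against CTRL. DYRK1A, a nuclear kinase that also phosphorylates splicing factors, came closest at 1 h in mRNA, at 88.4, 105 and 89.6 CPM beside 152, 134 and 142 CPM in CTRL, without overlap. Its log2 fold change of -0.598 (SE 0.09, edgeR adjusted p 0.000466) passed the adjusted p and lay just under the fold threshold, and at 6 h it was 0.00 (edgeR adjusted p 0.995). It is named here after its values were seen. After KCl, DYRK1A was called lower in mRNA at 3 h, at 76.4, 75.1 and 80.5 CPM (edgeR log2 fold change -0.88, SE 0.09, adjusted p 2.15e-07). It was also lower at 3 h than at 1 h of KCl (-0.71, SE 0.09, edgeR adjusted p 2.33e-05). In nuclei of cells given KCl for 1 h, CLK4 fell to 9.55, 8.56 and 6.84 CPM from 16.8, 15.2 and 17.9 CPM (-1.0, SE 0.14, edgeR adjusted p 1.6e-05), and SRPK3, a muscle-enriched kinase, from 5.50, 5.15 and 6.73 CPM to 1.12, 1.95 and 1.75 CPM (-1.83, SE 0.21, edgeR adjusted p 8.25e-07). Both were also lower than in nuclear JTE 1h (-0.71 and -1.32, edgeR adjusted p 0.00103 and 8.2e-05), the former not without nuclear KCl 1h replicate 3 (-0.59). Between the CTRL preparations SRPK3 (1.29) and CLK3 (0.71) took a larger share in nuclear RNA, and PRPF4B (-0.86), a kinase of the spliceosome, and CLK1 (-0.68) a smaller one. The CLK1 call was lost without nuclear CTRL replicate 3 (-0.597).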

How the data were processed

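Short-read RNA-seq of K562 cells was available as 27 mRNA and 15 nuclear RNA libraries. Each deposited value is the raw count of read pairs of 1 gene. The authors obtained it by trimming and deduplicating reads with fastp, aligning them to hg38 with STAR (unique alignments only) and counting pairs over exons with featureCounts. The processing notes name build GRCh38.p14; the annotation release is not given in the sources used here. No strand option was used, so antisense reads were counted for a gene. Pairs that hit exons of several genes were dropped, and deduplication without molecular identifiers can lower abundant genes. Symbols came from GENCODE 44 (57532 of 58243 IDs), and all 10 members overlapped their position there. The tables also give summed exon lengths, used for RPKM. All count columns had a sample. One of the markers of other cell types is not reported here.

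The test was the robust quasi-likelihood test of edgeR 4.0.16 (R 4.3.3) after filterByExpr and TMM. A single fit held all libraries of a fraction. Interactions used 12 libraries and the CTRL fraction contrast 6. CPM and RPKM used library sizes scaled by TMM within each fraction. Log2 fold changes used the TMM of their own fit. For interactions and the CTRL fraction contrast this can move a value away from the ratio of mean CPM. Adjusted p-values cover all genes tested. Alternatives were DESeq2 1.42.0, RLE scaling, no filter, no fold threshold, fits of only the compared groups, a replicate block and leaving out each library. Scripts were tested on simulated data.

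The 10 members, the SR-related list and the kinase list were chosen with earlier results of these data known. All members were tested in every comparison, though the text does not name each of them in all. From each other list called genes were named, at most the 2 largest rises and 2 largest falls per comparison. DYRK1A after JTE-607 is named though it was not called. Replicates were numbered as in the sample titles. Deviations from group means (genes with a mean CPM above 10) were correlated between libraries of the same number. These pair the nuclear libraries (correlations with CTRL from 0.235 to 0.891), mRNA JTE 18h with JTE 6h (0.112 to 0.322) and KCl 3h with KCl 1h (0.584 to 0.671), each above 0.1. Replicates are separate experiments according to the study.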

Additional observations from a re-analysis of the deposited data

Results flagged for a closer look

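CLK4 responded to 1 h of KCl differently in nuclear RNA and in mRNA. The interaction, nuclear minus mRNA, was -1.44 in log2 units (edgeR adjusted p 0.00455, SE 0.22). The kinase measured 13.2, 12.2 and 11.2 CPM in mRNA CTRL and 14.4, 15.8 and 16.2 CPM in mRNA KCl 1h, so every treated library was above every CTRL library. In nuclear RNA it measured 16.8, 15.2 and 17.9 CPM in CTRL and 9.55, 8.56 and 6.84 CPM after KCl, so every treated library was below. The interaction was called in all 16 alternative fits, with values from -1.59 to -1.31. Among all 21095 genes of this test 0.668% were called.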

How the results depend on the processing

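No called value of a member or list gene changed sign under the alternatives run; differences near 0 that were not called did in some, and the replicate block put 4 members below 0 at mRNA IM 1h in place of 3. With no fold change threshold the number of members passing became 2 at mRNA IM 6h, 1 each at mRNA JTE 6h, mRNA KCl 3h, nuclear KCl 1h, IM 18h against IM 6h and nuclear KCl 1h against JTE 1h, and 4 at IM 18h against JTE 18h. Without the filter on low counts 1 member was called at IM 18h against IM 6h and 4 at IM 18h against JTE 18h. Leaving out 1 library at a time gave 1 to 2 called members at mRNA IM 6h (2 without CTRL replicate 2), 0 to 1 at IM 18h against IM 6h and 0 to 4 at IM 18h against JTE 18h (0 if IM 18h replicate 1 was dropped, 4 if replicate 2 was). For the last comparison DESeq2, RLE scaling and the fit of only those groups each called 3. The replicate block left the number of called members equal in all 22 comparisons. In mRNA against CTRL the replicate numbers as titled do not pair the libraries, with same-number correlations from -0.37 to 0.88. Those of number 3 alone ran from 0.06 to 0.88. Only 6 of 24 treated mRNA libraries correlated best with the CTRL library of their own number, all 8 of number 1 correlated best with CTRL replicate 2 and all 8 of number 2 with CTRL replicate 1. By total counts these CTRL numbers are crossed against those of the paper. The paper lists 19031221 mapped reads for its untreated mRNA replicate 1 and 18333127 for replicate 2, the reverse of the titled libraries. The titles were kept here, so the block in mRNA against CTRL and in the CTRL fraction contrast rests on crossed numbers. The main fit holds no replicate term, and a block with CTRL 1 and 2 exchanged was not fitted. In nuclear RNA all 12 correlated best with their own number. RLE and DESeq2 scaling kept the median of all genes within 0.1 of that under TMM. With 3 libraries per group and no block, SEs of up to 0.25 in mRNA against CTRL limit what could be called for SRSF2 and SRSF6. The CTRL replicates of these 2 genes spread most. With the block on the titled numbers their SEs at IM 18h were 0.18 and 0.17, and the SRSF6 edgeR adjusted p was 0.00372. SRSF2 at IM 6h then passed the adjusted p and not the fold threshold (-0.51, edgeR adjusted p 0.0373).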
